A study of Mus musculus with 30 samples.

Results

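The 9 genes described here code for receptor tyrosine kinases of growth factors and related ligands: Pdgfra, Pdgfrb, Egfr, Erbb2, Fgfr1, Igf1r, Met, Ddr2 and Axl. They were taken by symbol, by a rule that uses no measured value, from the 54232 genes of the count table. All 9 were among the 20139 genes with more than 14 counts over the 30 libraries, and none was near that minimum, with a lowest count in any library of 111 for Egfr. The cells were 3T3-L1, a mouse fibroblast line that turns into fat cells in adipogenic medium. All groups, the controls included, were kept in that medium for 5 days. Control cells had no further agent, and the pNaKtide group had 0.7 µM pNaKtide, a cell-permeant peptide designed to block signaling by the Na,K-ATPase through Src. The IS group had 100 µM indoxyl sulfate, a solute that builds up in renal failure. The oxLDL group had 50 µg/mL oxidized low density lipoprotein, a source of oxidant stress. IS+pNaKtide and oxLDL+pNaKtide cells had both agents at those doses. Each group held 5 libraries. The labels give a treatment of 5 days and the study's methods a shorter course with daily doses, so its length is uncertain. All cells came from 1 purchased line, no source says whether the libraries of a group were separate cultures, and p-values measure only the spread between these libraries.

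Receptor tyrosine kinases cross the cell membrane once, bind a ligand outside the cell and phosphorylate tyrosines inside it, on themselves and on adaptor proteins. The signal runs mainly through Ras and the MAP kinases, through PI 3-kinase and Akt, and through phospholipase C, and it is damped by phosphatases, ubiquitin ligases and feedback inhibitors. In the fat lineage, PDGF receptors mark precursor cells, IGF-1 and insulin receptors drive differentiation, and EGF, FGF and HGF receptors act on growth and survival.

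The members share the catalytic loop of the kinase domain, the stretch that holds the aspartate needed for phosphate transfer. Its coding sequence is shown for 7 of them to let these be compared base by base, since the members differ in base composition and some of the changes below moved with the GC trend of the libraries. The windows were read from the GENCODE M21 transcript with the longest coding sequence, in GRCm38. In Pdgfra the window lay in exons 17 and 18 of 23 (chr5:75185618-75185998, plus strand), in Fgfr1 in exons 13 and 14 of 18 (chr8:25570889-25572385, plus strand), in Met in exons 19 and 20 of 22 (chr6:17562221-17563566, plus strand) and in Axl in exons 17 and 18 of 20 (chr7:25761552-25763330, minus strand), so these coordinates span an intron. In Egfr it lay within exon 21 of 28 (chr11:16904320-16904379, plus strand), in Erbb2 within exon 21 of 27 (chr11:98434229-98434288, plus strand) and in Igf1r within exon 18 of 21 (chr7:68212078-68212137, plus strand). Each is given from 5′ to 3′ as 60 bases of the spliced coding strand, and the 24 capitals mark the codons of the loop.
Pdgfra: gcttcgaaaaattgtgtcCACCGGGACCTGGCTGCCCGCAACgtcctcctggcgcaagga
Egfr: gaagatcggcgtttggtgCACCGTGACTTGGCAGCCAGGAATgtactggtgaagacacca
Erbb2: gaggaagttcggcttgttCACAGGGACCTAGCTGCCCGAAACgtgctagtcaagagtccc
Fgfr1: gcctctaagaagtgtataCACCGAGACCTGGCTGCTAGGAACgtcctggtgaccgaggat
Igf1r: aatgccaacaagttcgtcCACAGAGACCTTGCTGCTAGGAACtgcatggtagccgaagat
Met: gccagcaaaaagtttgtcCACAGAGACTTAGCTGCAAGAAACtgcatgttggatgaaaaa
Axl: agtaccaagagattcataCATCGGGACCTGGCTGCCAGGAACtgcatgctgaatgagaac
Over whole transcripts, untranslated parts included, the longest run of identical bases between any pair was 43, in Pdgfra and Igf1r, and 21 in the next pairs. In the loop, Pdgfra and Igf1r had the same base at 18 of 24 positions, and where their run lies was not examined. Over the longest transcript of each gene the GC content was 44.4% in Egfr, 45.1% in Ddr2, 45.5% in Met, 48.1% in Pdgfra and 49.4% in Igf1r. It was 54.2% in Axl, 54.9% in Pdgfrb, 55.4% in Fgfr1 and 57.3% in Erbb2.

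Library totals ranged from 6945498 to 15159877 counts. All 8 adipocyte markers (Adipoq, Fabp4, Plin1, Lpl, Cidec, Pparg, Cebpa and Cd36) were expressed, and the macrophage markers Ptprc and Itgam had no count in any library, where the 5 macrophage markers summed to 3.32 to 6.55 FPKM. The summed level of the adipocyte markers had a median of 5543 FPKM in Control, 4102 in IS, 4356 in IS+pNaKtide, 4439 in oxLDL, 5703 in oxLDL+pNaKtide and 5415 in pNaKtide. Cidec and Cebpa were called lower and Cd36 higher both with oxLDL and with IS, and Adipoq was called lower with IS. With pNaKtide added to oxLDL, Adipoq, Cidec and Cebpa were called higher and Cd36 lower. The part of these markers in the results below was not tested. The 4 endothelial markers summed to at most 0.101 FPKM in any library. FPKM is the deposited level scaled by gene length and library depth. The summed level of the 6 fibroblast and preadipocyte markers (Dlk1, Thy1, Ly6a, Col1a1, Col3a1 and Postn) ranged from 615 to 800.0 FPKM in Control, 383 to 638 in IS, 385 to 509 in IS+pNaKtide, 511 to 595 in oxLDL, 509 to 794 in oxLDL+pNaKtide and 454 to 743 in pNaKtide. Within that list, Dlk1 (-0.69) and Col1a1 (-0.57) were called lower and Postn higher (0.45) with oxLDL, and Ly6a (-0.44), Col1a1 (-0.79) and Col3a1 (-0.41) lower with IS. With pNaKtide added to oxLDL, Dlk1 (1.00) and Ly6a (0.54) were called higher and Postn lower (-0.83). The part of these markers was not tested either. In these bulk samples, fewer cells of a type and less RNA per cell cannot be told apart. A first principal component over 12580 genes held 64.4% of the variance, and Control replicate 1 and IS replicate 4 lay apart from the other libraries of their groups on it, at 25.8 against -29.9 to -6.47 and at -28.2 against 23.2 to 36.7. On the same component oxLDL+pNaKtide replicate 4 was at -67.5 against -33.2 to -14.5, and pNaKtide replicate 3 at 5.36 against -36.6 to -15.9. For the members, calls that change without Control replicate 1 and IS replicate 4 are given both ways. Calls of markers and listed genes are given with all libraries. The libraries left out were chosen by this component, with which Ddr2 correlated at r = 0.86, so p-values without them do not allow for that choice. In that fit oxLDL+pNaKtide replicate 4 and pNaKtide replicate 3 were kept.

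By level per transcript length, Fgfr1, a receptor for fibroblast growth factors, was the highest of the 9 in every group, at 72.2 ± 2.92 FPKM in Control (SD, n = 5). Axl, the receptor for the vitamin K-dependent ligand Gas6, was second in every group, at 46.3 ± 5.03 FPKM in Control. Then came Pdgfrb at 17.5 ± 1.41 FPKM, Pdgfra at 11.4 ± 2.23 FPKM and Ddr2 at 11.4 ± 3.20 FPKM, whose ranges overlapped, neighbour by neighbour. Met, the receptor for hepatocyte growth factor, stood at 7.77 ± 1.10 FPKM, and Erbb2, the ligandless partner of the EGF receptor family, at 4.13 ± 0.425 FPKM. Egfr at 2.20 ± 0.197 FPKM and Igf1r at 1.55 ± 0.288 FPKM were lowest and their ranges overlapped. The upper and lower ends of this order were the same in the 6 groups. In its middle, Ddr2 stood below Pdgfrb and Pdgfra in Control but above both in oxLDL, at 15.3 ± 1.30 FPKM, and in IS+pNaKtide, at 12.5 ± 1.37 FPKM, in each case with a range that overlapped its neighbour's.

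**Figure D1:**
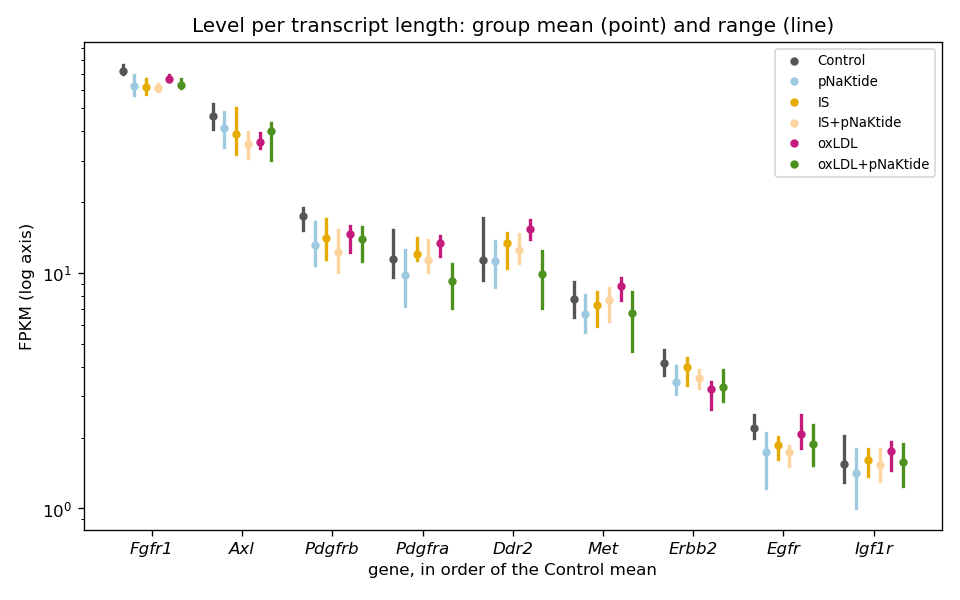
The plot gives FPKM on a log axis for each gene, ordered by its Control mean, with a point for the mean of the 5 libraries of a group and a line from the lowest to the highest. Fgfr1 and Axl lie above the other genes in all 6 groups, and Egfr and Igf1r below them.

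The first comparison asks how oxLDL changed the receptors. One member rose, Ddr2, a receptor for fibrillar collagen, and 2 fell, Erbb2 and Axl, while the other 6 did not pass the test (edgeR, Benjamini-Hochberg adjusted p under 0.1). Over all genes tested, 18.1% were called higher and 18% lower, so the members' shares of 1 and 2 of 9 were near that background.

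Values below are CPM, counts scaled to the library total (with TMM, edgeR's factor for composition), in the order of replicates 1 to 5. Ddr2 stood at 159, 95.4, 98.0, 92.0 and 87.9 CPM in Control and at 158, 147, 130, 133 and 152 CPM in oxLDL. Control replicate 1 exceeded every oxLDL library, and the other 4 Control libraries lay below all of them. The log2 fold change was 0.44 (SE 0.15, edgeR adjusted p = 0.0354). It was 0.63 without Control replicate 1 (adjusted p = 0.00105), and the call was lost without Control replicate 4 (0.38, adjusted p = 0.106) or Control replicate 5 (0.37, adjusted p = 0.103).

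Erbb2 stood at 19.4, 20.9, 20.4, 23.4 and 24.9 CPM in Control and at 17.5, 18.2, 13.8, 18.5 and 16.9 CPM in oxLDL. Every oxLDL library was below every Control library, and the log2 fold change was -0.35 (SE 0.10, adjusted p = 0.0142). Axl stood at 212, 256, 209, 265 and 238 CPM in Control and at 190, 172, 182, 203 and 174 CPM in oxLDL. Again the groups did not overlap, and the log2 fold change was -0.36 (SE 0.12, adjusted p = 0.0238). Groups did not overlap for 2 of 9 members and for 8.35% of all genes. Both calls held when any 1 library was left out, and both were lost with the GC and length trend described below taken out (Erbb2 -0.13, adjusted p = 0.270, and Axl -0.19, adjusted p = 0.118), as was that of Ddr2.

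The PDGF receptors, which bind platelet-derived growth factors, had values of opposite sign. Pdgfra was at 116 ± 22.3 CPM in Control and 137 ± 11.1 CPM in oxLDL (log2 fold change 0.24, SE 0.14, adjusted p = 0.185), and Pdgfrb at 97.1 ± 7.55 and 81.8 ± 8.81 CPM (-0.25, SE 0.13, adjusted p = 0.156). Neither passed edgeR's test as reported here, and Pdgfrb was called lower with the replicate block (adjusted p = 0.0807) and with the compared groups alone (adjusted p = 0.0447). Without Control replicate 1, which held 155 CPM of Pdgfra against 97.9 to 112 in the rest, Pdgfra was called higher (0.37, adjusted p = 0.0264), and so was Igf1r, the receptor for IGF-1 (0.29, adjusted p = 0.0824). Without both libraries that lay apart, 5 members were called, 3 higher and 2 lower, where 5056 of 19973 genes were called higher and 4537 lower. With all libraries, Igf1r was at 26.3 ± 4.83 CPM in Control and 29.8 ± 2.89 CPM in oxLDL. Met, Egfr and Fgfr1 had log2 fold changes of 0.18, -0.08 and -0.11, and none was called by edgeR. DESeq2 called Fgfr1 lower (-0.11, adjusted p = 0.0890), and Egfr was called lower with the GC and length trend out (-0.45, adjusted p = 0.0151).

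**Figure D2:**
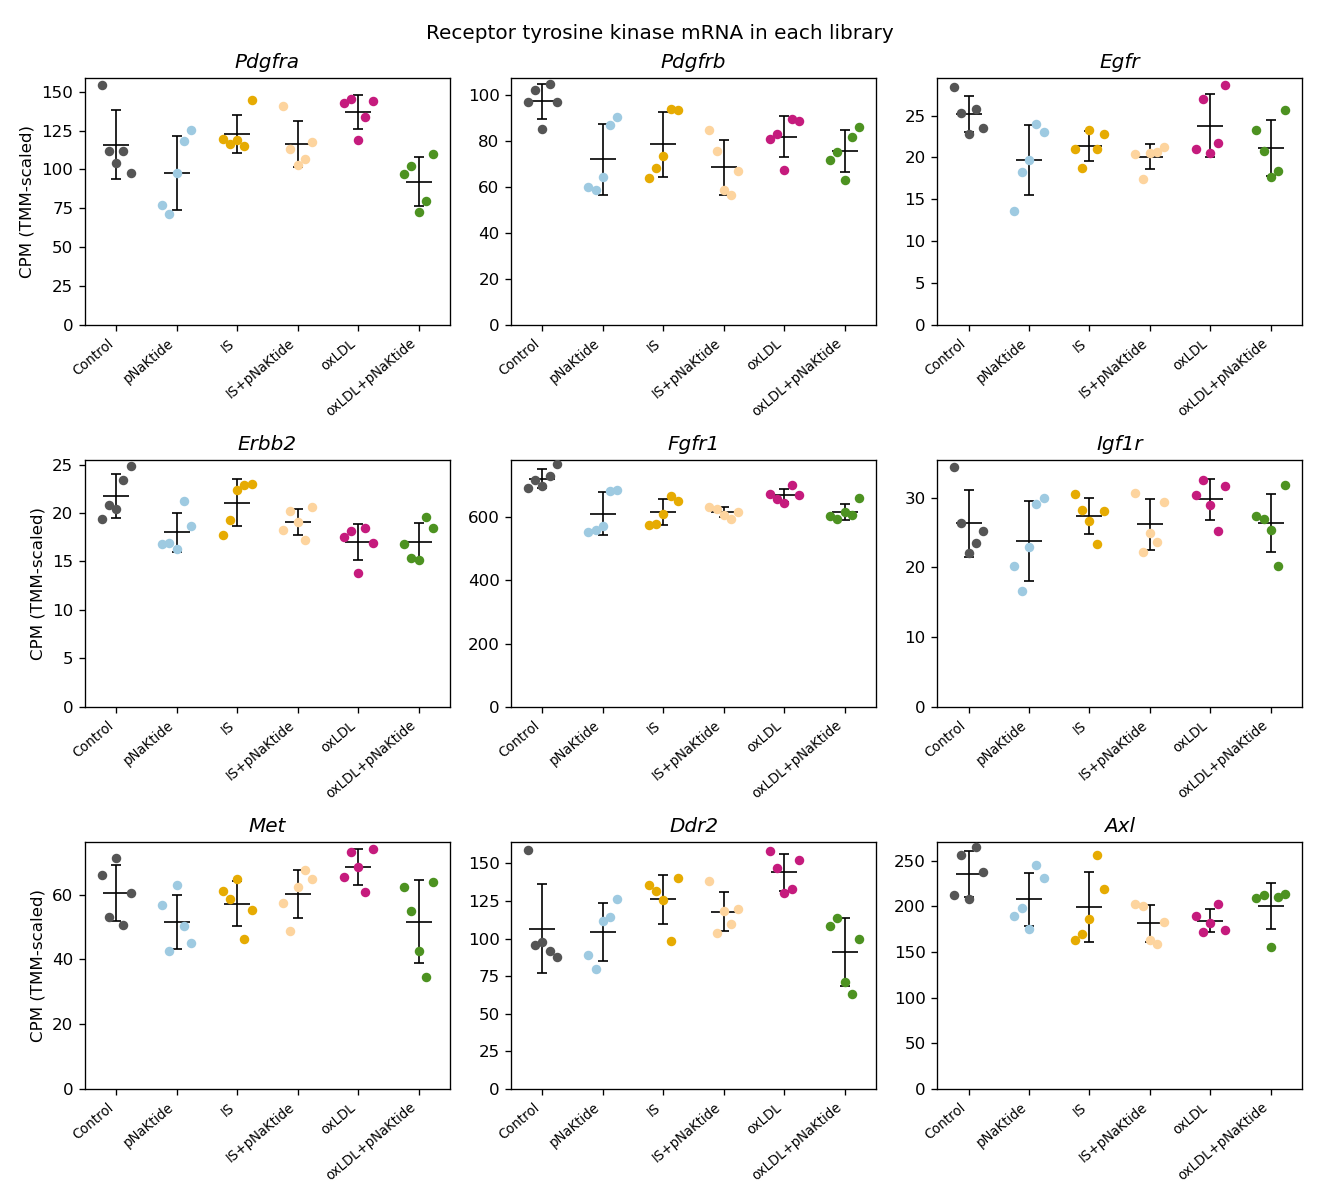
Each panel gives the CPM of 1 gene, from 0 on a linear axis, with a point for each of the 5 libraries of a group in replicate order, and a black mark and bar for the mean and SD. Ddr2 and Pdgfra lie lower in oxLDL+pNaKtide than in oxLDL with no overlap, and Control replicate 1 lies apart from its group for both.

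The second comparison asks what pNaKtide did in cells given oxLDL. Ddr2, Pdgfra and Met fell, none rose, and the other 6 did not pass the test. Over all genes, 26.1% were called lower and 22.1% higher, so 3 of 9 was near the background. Groups did not overlap for 2 of 9 members, against 28.4% of all genes.

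Ddr2 stood at 108, 114, 70.8, 63.2 and 99.8 CPM in oxLDL+pNaKtide, all below the lowest oxLDL library at 130 CPM. The log2 fold change was -0.66 (SE 0.16, adjusted p = 0.00105), from 144 ± 12.3 to 91.2 ± 22.7 CPM. With the GC and length trend described below taken out it was -0.20 (adjusted p = 0.0681).

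Pdgfra stood at 143, 146, 119, 134 and 144 CPM in oxLDL and at 97.2, 102, 72.5, 79.5 and 110 CPM in oxLDL+pNaKtide. The groups did not overlap, and the log2 fold change was -0.57 (SE 0.14, adjusted p = 0.00112). Met stood at 65.4, 73.2, 68.5, 60.7 and 74.1 CPM in oxLDL and at 62.2, 55.0, 42.6, 34.4 and 63.9 CPM with pNaKtide. Its groups overlapped, with replicates 3 and 4 of oxLDL+pNaKtide the lowest, and the log2 fold change was -0.40 (SE 0.13, adjusted p = 0.0158). All 3 calls held when any 1 library was left out, with Ddr2 at -0.55, Pdgfra at -0.52 and Met at -0.28 (adjusted p = 0.0845) without replicate 4 of oxLDL+pNaKtide. With the GC and length trend out, Pdgfra was at -0.29 (adjusted p = 0.00907), and the call of Met was lost and its sign turned (0.0081, adjusted p = 0.965).

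Erbb2 and Axl, which fell with oxLDL, were not called when pNaKtide was added. Erbb2 was at 17.0 ± 1.86 CPM in oxLDL and 17.0 ± 1.91 CPM in oxLDL+pNaKtide (log2 fold change -0.01, SE 0.10, adjusted p = 0.976). Axl was at 184 ± 12.5 and 200 ± 25.3 CPM (0.12, SE 0.12, adjusted p = 0.436), and its replicate 3 with both agents, at 155 CPM, lay apart from the other 4, at 209.5 to 214 CPM, which were above every oxLDL library. Without that replicate the log2 fold change of Axl was 0.21 (adjusted p = 0.140). Pdgfrb, Egfr, Fgfr1 and Igf1r had log2 fold changes of -0.12, -0.17, -0.12 and -0.17.

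**Figure D3:**
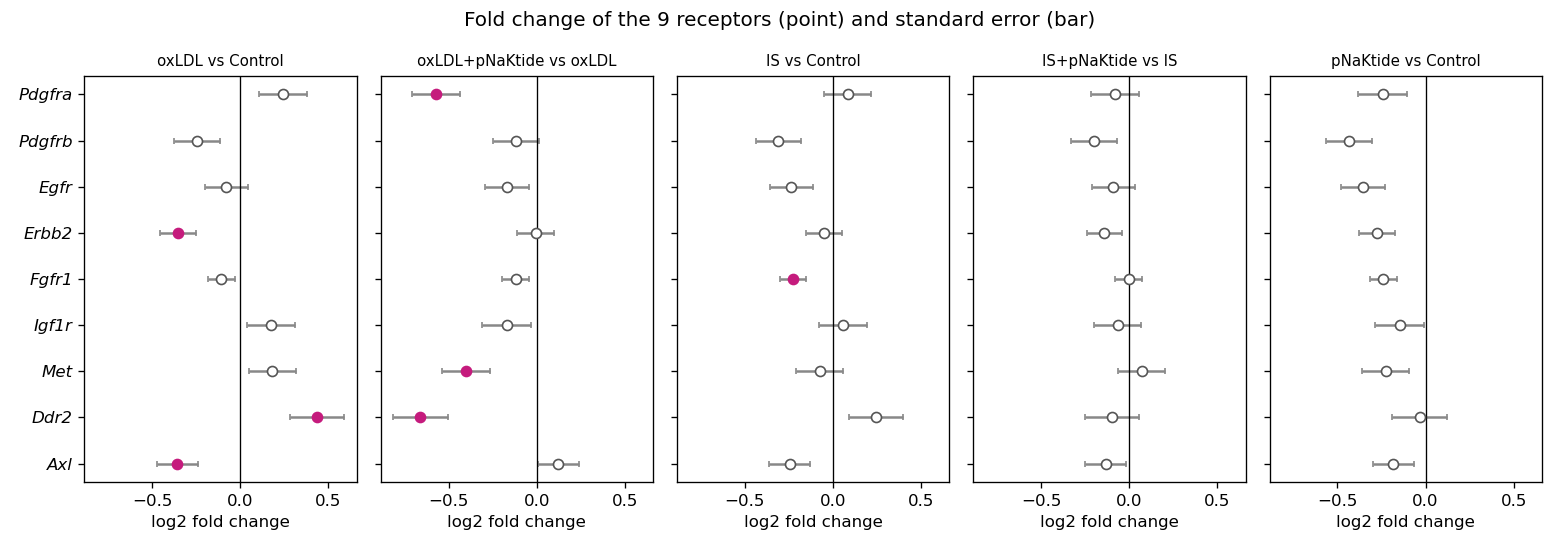
The plot gives the log2 fold change of each member (point) with its standard error (bar) in 5 comparisons, filled where the adjusted p was under 0.1. Filled points are 3 in oxLDL against Control, 3 in oxLDL+pNaKtide against oxLDL, 1 in IS against Control and none in the panels for IS+pNaKtide against IS and pNaKtide against Control.

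Cells given oxLDL and pNaKtide were also set against Control, with the same Control libraries. Erbb2 was called lower (log2 fold change -0.36, SE 0.10, adjusted p = 0.0519). The call was lost with the compared groups alone (3 genes called higher and 9 lower), without Control replicate 5 (-0.31, adjusted p = 0.144) and without 3 of the 5 oxLDL+pNaKtide libraries taken singly. No other member was called by edgeR, against 3.16% of all genes lower and 2.04% higher. Fgfr1 lay below Control without overlap, as 4.03% of all genes lay apart (-0.23, adjusted p = 0.102). Without the 2 libraries that lay apart, Erbb2 (-0.40, adjusted p = 0.0293) and Fgfr1 (-0.24, adjusted p = 0.0668) were called lower, with 755 of 19973 genes lower and 550 higher. With all libraries, Fgfr1 (-0.20, adjusted p = 0.00851) and Pdgfrb (-0.34, adjusted p = 0.0957) were also called lower by DESeq2, where 884 genes were lower and 937 higher, and edgeR called both with the replicate block, with the stricter count minimum, with library size alone and with the GC and length trend out.

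With IS, 1 member fell, Fgfr1, and none rose, against 3.49% of all genes called lower and 4.45% higher. Fgfr1 stood at 694, 719, 699, 729 and 769 CPM in Control and at 574, 580, 610, 667 and 653 CPM in IS. The groups did not overlap, which held for 1 of 9 members and 1.84% of all genes. The log2 fold change was -0.23 (SE 0.08, adjusted p = 0.0912). The call was lost when any 1 of Control replicates 2 to 5 or of IS replicates 1, 2, 3 and 5 was left out, with adjusted p of 0.118 to 0.249. It was also lost with genes of at least 1 count, with the GC and length trend out (-0.12, adjusted p = 0.229) and with library size alone (-0.11, adjusted p = 0.293). The same held with the compared groups alone (-0.22, adjusted p = 0.246), where 0 genes were called in either direction.

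The other 8 members did not pass edgeR's test with IS. Pdgfrb was at 78.4 ± 14.2 CPM against 97.1 ± 7.55 in Control (-0.31, SE 0.13, adjusted p = 0.143, called with DESeq2 at 0.0927 and with the replicate block at 0.0674), with replicates 4 and 5 at 93.7 and 93.3 CPM and the other 3 at 63.6 to 73.5. Axl was at 199 ± 38.6 CPM (-0.25, SE 0.12, adjusted p = 0.185), and its replicates 4 and 5, at 256 and 219 CPM, lay within the Control range. Ddr2 was at 126 ± 16.4 CPM (0.24, SE 0.15, adjusted p = 0.317). Without Control replicate 1 and IS replicate 4, Ddr2 was called higher (0.51, adjusted p = 0.00341), and Pdgfrb (-0.38, adjusted p = 0.0298), Fgfr1 (-0.27, adjusted p = 0.00667) and Axl (-0.39, adjusted p = 0.00603) lower. In that fit 4783 of 19973 genes were called higher and 4357 lower, so 1 and 3 of 9 members were near the background. The libraries left out were chosen by the first principal component, and the p-values do not allow for that choice.

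When pNaKtide was added to IS, no member was called and none had an unadjusted p under 0.05. No gene was called in either direction over the whole table (0%), where 564 genes had an unadjusted p under 0.05. The members' log2 fold changes ranged from -0.20 for Pdgfrb to 0.07 for Met. No member's groups lay apart, against 0.834% of all genes. DESeq2 called 0 members and 14 genes.

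IS+pNaKtide cells compared with Control had no member called, against 0.139% of all genes higher and 0.218% lower. Pdgfrb, Egfr, Fgfr1 and Axl lay below every Control library, 4 of 9 members against 3.79% of all genes whose groups lay apart. Their log2 fold changes were -0.51, -0.33, -0.23 and -0.38, with adjusted p from 0.113 to 0.180. Without Control replicate 1, Pdgfrb (adjusted p = 0.0185), Fgfr1 (adjusted p = 0.0378) and Axl (adjusted p = 0.0243) passed the test as lower and Ddr2 as higher (adjusted p = 0.0859). Without IS replicate 4 as well, Egfr (-0.28, adjusted p = 0.0998) and Erbb2 (-0.23, adjusted p = 0.0985) were also called lower, 6 members in all, where 3430 of 19973 genes were called higher and 3096 lower. DESeq2 called 4 members lower with all libraries, and 749 genes lower and 737 higher of 20139. With the replicate block, edgeR called 3 members lower, and 551 genes lower and 787 higher. Members were also called with the compared groups alone and with the GC and length trend out.

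pNaKtide alone gave no called member in edgeR, with 0.00497% of all genes (1 gene) called lower and 0% higher. With all libraries the fitted log2 fold changes of all 9 members were below 0, from -0.43 for Pdgfrb to -0.03 for Ddr2, where the median of all genes was -0.02. That of Ddr2 was above 0 without Control replicate 1 (0.16), without pNaKtide replicate 1 (0.020) or 2 (0.050), and with the GC and length trend out (0.058). Unadjusted p-values under 0.05 were found for 4 members, against 6.12% of all genes. These were Pdgfrb (-0.43), Egfr (-0.35), Erbb2 (-0.27) and Fgfr1 (-0.24), with adjusted p from 0.536 to 0.716. DESeq2 called 1 member, Fgfr1, lower (-0.22, adjusted p = 0.0267), and 39 genes lower and 18 higher.

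Fgfr1 in pNaKtide stood at 553, 560, 574, 684 and 687 CPM, all below the lowest Control library at 694 CPM. It was 1 of 9 members with groups apart, against 0.934% of all genes. Pdgfrb stood at 59.8, 58.3, 64.0, 86.9 and 90.4 CPM in pNaKtide and at 96.9, 102, 85.0, 105 and 96.8 CPM in Control. For both genes replicates 4 and 5 were higher than the other 3 pNaKtide libraries.

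Whether the change with pNaKtide depended on the other agent was tested directly. The change of Ddr2 with pNaKtide in oxLDL was lower than that with pNaKtide alone by a log2 difference of -0.63 (SE 0.22, adjusted p = 0.0528), 1 of 9 members, where 11.8% of all genes were called lower and 12.8% higher. The call was lost without Control replicate 4 (-0.57, adjusted p = 0.112), Control replicate 5 (-0.56, adjusted p = 0.101), oxLDL+pNaKtide replicate 4 (-0.52, adjusted p = 0.125) or pNaKtide replicate 3 (-0.59, adjusted p = 0.114). Without the 2 libraries that lay apart it was -0.82 (adjusted p = 0.0010), and Pdgfra was also called lower (-0.45, adjusted p = 0.0505) and Axl higher (0.34, adjusted p = 0.0716), with 4156 of 19973 genes lower and 3898 higher. With the GC and length trend described below taken out, Ddr2 lost its call (-0.26, adjusted p = 0.185) and Egfr was the one member called, higher (0.66, adjusted p = 0.0215), with 1439 of 20107 genes higher and 902 lower. For IS no member and no gene (0% in each direction) had a called difference from pNaKtide alone, and 1 member, Fgfr1, and 619 genes had an unadjusted p under 0.05. DESeq2 called 0 members and 0 genes there.

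Between oxLDL and IS, the changes with pNaKtide differed for 3 of 9 members, all lower in oxLDL: Ddr2 (-0.56, SE 0.22, adjusted p = 0.0650), Pdgfra (-0.49, SE 0.19, adjusted p = 0.0650) and Met (-0.47, SE 0.19, adjusted p = 0.0719). Over all genes 15.4% were called lower and 13.9% higher. With the GC and length trend out all 3 calls were lost, with Ddr2 at -0.14 (adjusted p = 0.510), Pdgfra at -0.23 (adjusted p = 0.227) and Met at -0.083 (adjusted p = 0.761), and Egfr was called higher (0.42, adjusted p = 0.0764), with 2125 of 20107 genes higher and 1467 lower. Without the 2 libraries that lay apart, Ddr2 (-0.48) and Pdgfra (-0.47) were called and Met was not (-0.40, adjusted p = 0.129), with 2671 of 19973 genes lower and 2239 higher. Leaving out IS replicate 4 lost all 3 calls, with adjusted p of 0.159, 0.127 and 0.167 in the same order. Leaving out oxLDL replicate 5 or replicate 3 or 4 of oxLDL+pNaKtide also lost all 3, with adjusted p up to 0.181. Single calls were lost without other libraries too: Ddr2 without oxLDL replicate 1, Pdgfra and Met without oxLDL replicate 2, Pdgfra and Ddr2 without IS+pNaKtide replicate 1, and Met without IS+pNaKtide replicate 3, 4 or 5.

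Among the 36 pairs of members, the closest was Pdgfra and Ddr2. They correlated at r = 0.89 over the 30 libraries and 0.85 after the group means were taken out. Pdgfrb and Fgfr1 correlated at 0.86 and 0.83, and Pdgfrb and Axl at 0.78 and 0.83. The PDGF receptors correlated with each other at 0.51 and 0.67, and Egfr with Pdgfra at 0.64 and 0.72, with Pdgfrb at 0.66 and 0.49 and with Fgfr1 at 0.67 and 0.49. The lowest value was that of Met and Axl, at -0.36 and -0.41. These are descriptions over log2 CPM values that share libraries, scaling and base composition.

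The spread of some members followed a GC trend of the libraries. A slope of log2 level on GC content was fitted in each library, in log2 units per 10 percentage points, and over the 30 libraries it correlated with the first principal component at r = -0.99. The slope lay between -0.41 and -0.13 in oxLDL and between 0.10 and 0.65 in oxLDL+pNaKtide, so these groups did not overlap. It was -0.20 in Control replicate 1 against 0.02 to 0.33 in the other Control libraries, and 0.27 in IS replicate 4 against -0.35 to -0.19 in the other IS libraries. Over the 30 libraries, Ddr2 correlated with it at -0.82, Met at -0.72, Pdgfra at -0.62, Igf1r at -0.51 and Axl at 0.64, while Fgfr1 (0.14), Egfr (-0.18), Erbb2 (0.24) and Pdgfrb (0.24) did so less. These are again descriptions over libraries that share their groups.

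**Figure D4:**
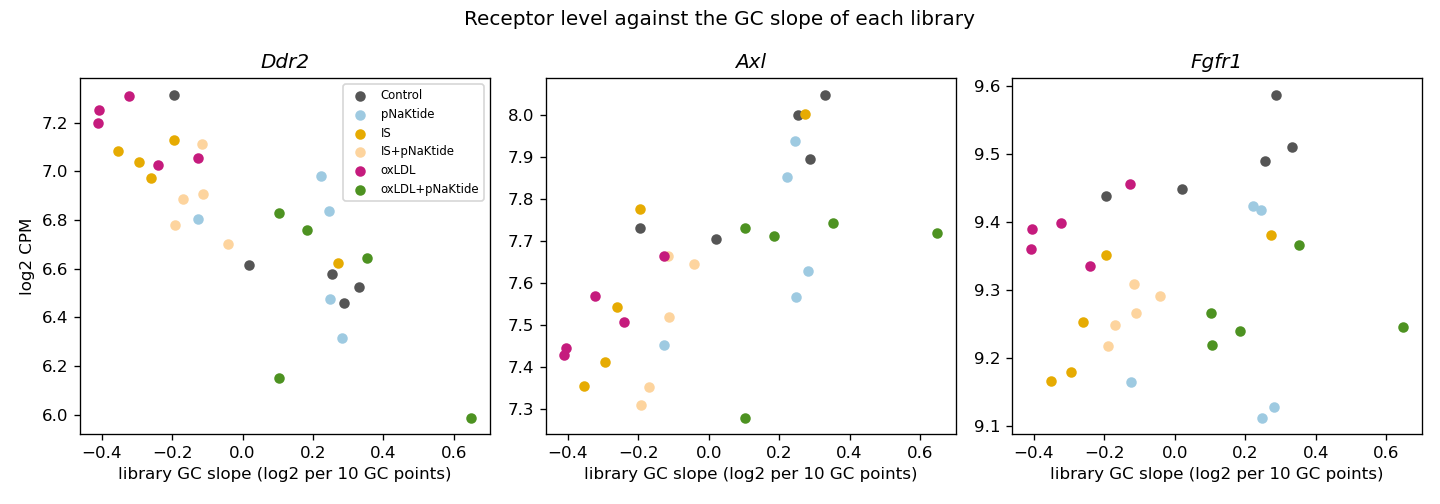
Each panel gives log2 CPM of 1 gene in the 30 libraries against the GC slope of the library, colored by group. Ddr2 falls and Axl rises along the slope (r = -0.82 and 0.64), and Fgfr1 shows little relation to it (r = 0.14).

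With a smooth trend on GC content and length taken out of each library, other members were called. In oxLDL against Control, Ddr2 was at 0.16 (adjusted p = 0.217), Erbb2 at -0.13 (adjusted p = 0.270) and Axl at -0.19 (adjusted p = 0.118), none called, and Egfr was called lower (-0.45, adjusted p = 0.0151). In oxLDL+pNaKtide against oxLDL, Pdgfra (-0.29, adjusted p = 0.00907) and Ddr2 (-0.20, adjusted p = 0.0681) were still called lower and Met was at 0.0081 (adjusted p = 0.965). There, Pdgfrb (-0.27), Erbb2 (-0.23) and Fgfr1 (-0.19) were then also called lower and Egfr higher (0.37, adjusted p = 0.0114). Of 20107 genes, 3783 were called higher and 3601 lower there, and 1700 higher and 2296 lower in oxLDL against Control. In IS against Control, Fgfr1 lost its call (-0.12, adjusted p = 0.229) and Egfr was called lower (-0.48, adjusted p = 0.0256), with 392 genes higher and 428 lower. No source tells a GC trend of the libraries from a change in the cells, and in these groups they cannot be told apart.

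**Figure D5:**
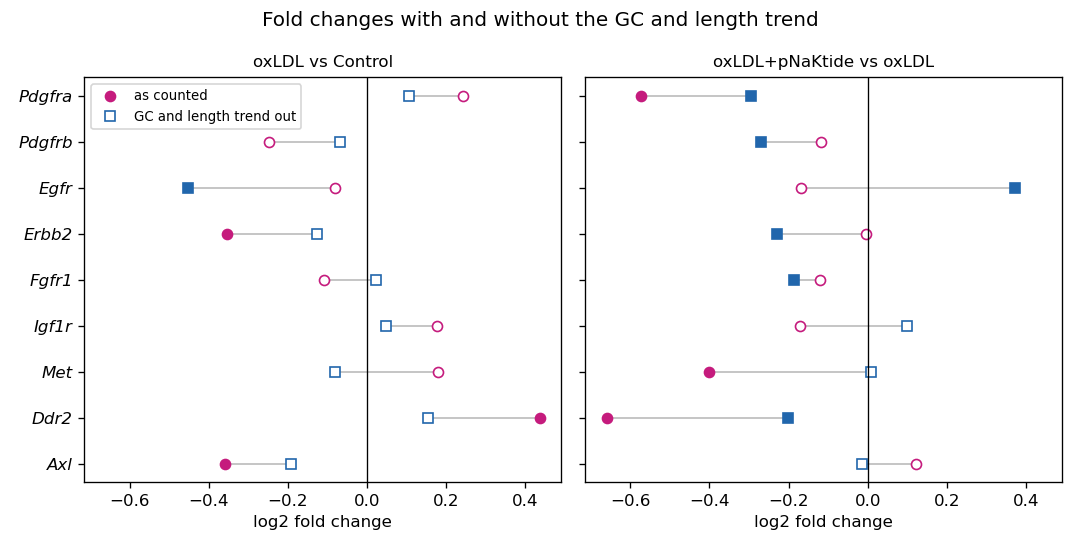
The plot gives the log2 fold change of each member in 2 comparisons, as counted (circles) and with the GC and length trend taken out (squares), filled where the adjusted p was under 0.1. Pdgfra and Ddr2 stay below 0 and filled in oxLDL+pNaKtide against oxLDL, while Met moves to 0.0081 and Egfr to 0.37.

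Scaling by library size alone, without TMM, moved the median of all genes from 0.04 to 0.17 in oxLDL against Control and from -0.09 to -0.30 in oxLDL+pNaKtide against oxLDL. All genes then split into 4963 higher and 2276 lower in the former, in place of 3637 and 3622, and into 2696 and 7680 in the latter, in place of 4458 and 5264. The members split into 2 higher and 2 lower, and into 0 higher and 8 lower. Ddr2, Erbb2 and Axl kept their signs with oxLDL, and Ddr2, Pdgfra and Met with pNaKtide added, at -0.89, -0.80 and -0.63, each further below 0 than the median.

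The ligands of these and related receptors were examined as a list of 32 genes, 26 of them tested. The counts of this and the next lists stand beside shares of all genes called higher and lower of 18.1% and 18% with oxLDL, 4.45% and 3.49% with IS, and 22.1% and 26.1% with pNaKtide added to oxLDL. With oxLDL 6 rose and 3 fell, with a list median of 0.22 against 0.04 for all genes. Fgf7, a fibroblast growth factor for epithelia, rose from 4.97 ± 1.61 to 7.81 ± 0.652 CPM (log2 fold change 0.64, adjusted p = 0.0112). Hgf, the ligand of Met, rose from 2.52 ± 0.567 to 3.93 ± 0.656 CPM (0.66, adjusted p = 0.0128). The fibrillar collagens Col1a1 and Col1a2, ligands of Ddr2, fell (-0.57, adjusted p = 0.0481, and -0.44, adjusted p = 0.0408).

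With pNaKtide added to oxLDL, 11 of 26 ligands fell and none rose, with a median of -0.38 against -0.09. Hgf fell to 1.83 ± 0.594 CPM (-1.08, adjusted p = 1.1e-04) and Pdgfc, a ligand of the PDGF alpha receptor, from 18.3 ± 1.23 to 13.2 ± 1.01 CPM (-0.47, adjusted p = 1.7e-04). With IS, Hgf rose (0.60, adjusted p = 0.0776) and 3 ligands fell, Col3a1 (-0.41) and Col1a1 (-0.79) among them. With the GC and length trend out, 1 ligand was called with oxLDL, lower, and 2 higher and 3 lower with pNaKtide added, where 2296 and 3601 of 20107 genes were called lower and 1700 and 3783 higher in these comparisons.

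Of 49 other receptor tyrosine kinases, 30 were tested. With oxLDL 2 rose, Fgfr2 (0.29, adjusted p = 0.0567) and Lmtk2 (0.32, adjusted p = 0.0814), and 3 fell, among them Ddr1, the other collagen receptor (-0.29, adjusted p = 0.0117), and Ephb4, an ephrin receptor (-0.34, adjusted p = 0.0171). With pNaKtide added to oxLDL 13 fell and none rose, with a median of -0.25 against -0.09. Lmtk2 fell from 56.3 ± 3.64 to 34.4 ± 5.64 CPM (-0.70, adjusted p = 2.3e-04) and Ptk7 from 47.2 ± 4.64 to 34.8 ± 3.12 CPM (-0.44, adjusted p = 7.1e-04). None of the 30 was called with IS and all libraries. Without Control replicate 1 and IS replicate 4, all genes called with IS rose from 897 higher and 702 lower to 4783 and 4357. That fit is not given for this list, and its counts and values are without the GC and length trend taken out.

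All 42 signal transducers downstream of the receptors were tested. With oxLDL 16 rose and 7 fell, and with pNaKtide added to it 7 rose and 25 fell, with a median of -0.27 against -0.09. These counts and the values that follow are without the GC and length trend taken out. The GC slopes of the oxLDL and oxLDL+pNaKtide libraries did not overlap. Yes1, a kinase of the Src family, rose from 11.2 ± 4.79 to 23.1 ± 4.99 CPM with oxLDL (1.05, adjusted p = 0.00783) and fell to 7.92 ± 2.34 CPM with pNaKtide added (-1.53, adjusted p = 3.4e-05). The small GTPase Hras went the other way, from 77.5 ± 16.1 to 50.8 ± 7.10 and then to 98.0 ± 20.3 CPM (-0.61 and 0.94, adjusted p = 0.00957 and 4.0e-05). Among the others that changed with pNaKtide added were Map2k2, a MAP kinase kinase (1.02, adjusted p = 4.8e-05), and Crk, an adaptor (-0.998, adjusted p = 1.3e-05). The adaptor Nck1 rose (0.63) and the kinase Akt2 fell (-0.44) with oxLDL, and both did so with IS, where 5 transducers rose and 1 fell (0.48, adjusted p = 0.0783, and -0.38, adjusted p = 0.0614). Yes1 also rose with IS (0.75, adjusted p = 0.0818). These comparisons share the Control libraries.

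Among 32 negative regulators, all tested, 9 rose and 4 fell with oxLDL. Rasa2, a Ras GTPase-activating protein, rose with oxLDL (0.67) and IS (0.54), and the phosphatase Ptpn2 rose with oxLDL (0.55). Csk, the kinase that inhibits Src, fell with oxLDL (-0.41) and IS (-0.38) and rose with pNaKtide added to oxLDL (0.42). In that last comparison 4 regulators rose and 21 fell, and the median was -0.50 against -0.09. Errfi1, an inhibitor of EGF receptor kinases, fell from 219 ± 8.01 to 148 ± 17.4 CPM (-0.57, adjusted p = 1.7e-05), and Spry4, a feedback inhibitor of Ras signaling, from 87.1 ± 3.24 to 53.5 ± 8.58 CPM (-0.70, adjusted p = 3.6e-05). With the trend out, 17 of the 32 were called lower and 1 higher, where 3601 of 20107 genes were lower and 3783 higher. Trib3, a pseudokinase that binds Akt, fell with oxLDL (-0.53, adjusted p = 0.00736) and with IS (-0.67, adjusted p = 0.00768), where 1 regulator rose and 5 fell, and rose with pNaKtide added to oxLDL (0.48, adjusted p = 0.00125). Of 7 IGF binding proteins, 5 were tested, and 3 fell with oxLDL, Igfbp6 (-0.52, adjusted p = 0.0326) and Igfbp4 (-0.36, adjusted p = 0.0628) among them. With pNaKtide added, Igfbp4 (0.47) and Igfbp7 (0.23) were among 3 that rose and Igfbp3 (-0.57) fell. With library size alone, 1 of the 5 was called higher and 1 lower with oxLDL, and 0 higher and 1 lower with pNaKtide added.

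The genes whose log2 CPM followed each member most closely over the 30 libraries were found for description only. For Ddr2 they were Chd9 (r = 0.98) and Bach1 (0.98), for Pdgfra Vcan (0.95) and Clcn5 (0.94), and for Pdgfrb Mrc2 (0.94) and Fn1 (0.93). For Axl they were Flnc (0.93) and Man2b2 (0.93), for Fgfr1 Boc (0.88) and Fbln2 (0.88), and for Igf1r Adamts9 (0.91) and Bahcc1 (0.88). For Met it was Ap1g1 (0.89), for Egfr Ahdc1 (0.86) and Atp2a2 (0.84), and for Erbb2 Clstn1 (0.80) and Gas6 (0.80).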

How the data were processed

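RNA of 30 libraries of 3T3-L1 cells was analysed. The authors trimmed paired reads with Trimmomatic 0.38, aligned them to GRCm38 with HISAT2 2.1.0 and counted reads per gene with GenomicAlignments, per the labels and the study's methods, and deposited these raw counts, 1 column per library. No source used here gives the annotation release or the strand setting. The authors deposited FPKM values scaled by depth and gene length, used here for levels between genes only. Their normalized counts were not used.

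Here, genes with more than 14 counts in total were tested in R 4.3.3 with edgeR 4.0.16 (TMM, robust quasi-likelihood fit of 6 group means, Benjamini-Hochberg adjustment over 20139 genes, threshold 0.1, two-sided). CPM used TMM library sizes and log2 CPM a prior count of 2. Ensembl identifiers were matched to symbols for 54079 of 54232 genes. The fitting code was tested on counts simulated for Control and oxLDL alone, with genes drawn independently, which does not test the fit of 6 groups. GC content and length came from GENCODE M21 and were known for 99.8% of the genes tested. In the trend alternative, splines with 5 degrees of freedom on GC and length, fitted over 12567 genes, entered as offsets. Alternatives were DESeq2 1.42.0, other scalings and count minimums, an adjusted p of 0.05, a replicate block, the compared groups alone, the trend, and leaving out libraries.

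The rule for the members uses no measured value, but they and the gene lists were chosen with earlier results of these data known. All 9 members are named. Of each list, up to 2 genes per direction with the smallest adjusted p and a mean log2 CPM of at least 1 are named, and for each member the 2 most correlated genes. One gene of the latter kind and the sequences of 2 members are not reported here. Library totals set the precision of counts.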

Additional observations from a re-analysis of the deposited data

Results flagged for a closer look

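Of 54 sets of 5 libraries (9 members in 6 groups), 5 held a library far from the other 4, where chance would mark about 1 in 20 independent sets. The sets are not independent, since members share libraries and Pdgfra and Ddr2 correlated at 0.85 within groups. That rate therefore cannot judge the count. Control replicate 1 held 155 CPM of Pdgfra against 112 in the next library, and 159 CPM of Ddr2 against 98.0. IS replicate 5 held 145 CPM of Pdgfra against 119.5. IS+pNaKtide replicate 2 held 17.5 CPM of Egfr against 20.4, and oxLDL+pNaKtide replicate 3 held 155 CPM of Axl against 209.5.

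The change with pNaKtide differed between settings for 3 members by edgeR's test of the difference. For Ddr2 it was -0.63 (log2) lower in oxLDL than with pNaKtide alone. Between oxLDL and IS it was -0.56 for Ddr2, -0.49 for Pdgfra and -0.47 for Met. All 4 had an adjusted p between 0.05 and 0.1, and none of the 4 was called with the GC and length trend out, at -0.26 for Ddr2 in the former, and at -0.14 for Ddr2, -0.23 for Pdgfra and -0.083 for Met in the latter.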

How the results depend on the processing

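The members called numbered 3 in oxLDL against Control, 1 in IS against Control, 0 in pNaKtide against Control, 3 in oxLDL+pNaKtide against oxLDL, 0 in IS+pNaKtide against IS, 1 in oxLDL+pNaKtide against Control, 0 in IS+pNaKtide against Control, 1 in the pNaKtide change in oxLDL less that alone, 0 in the pNaKtide change in IS less that alone and 3 in the pNaKtide change in oxLDL less that in IS. Below are the counts that changed and the log2 values that turned sign. Of the latter, only Met in oxLDL+pNaKtide against oxLDL had been called with all libraries and no correction, and the cause was not tested unless the setting itself removed genes or libraries. With DESeq2, the number of members called was 2 in IS against Control, 1 in pNaKtide against Control, 3 in oxLDL+pNaKtide against Control, 4 in IS+pNaKtide against Control and 4 in oxLDL against Control. Over all genes and in the same order, DESeq2 called 1644 and 1516, 18 and 39, 937 and 884, 737 and 749, and 3701 and 3952 higher and lower. It also turned signs in oxLDL+pNaKtide against oxLDL (Erbb2 0.016) and in IS+pNaKtide against Control (Pdgfra -0.0075). With DESeq2-type (RLE) size factors in edgeR, the number of members called was 1 in IS+pNaKtide against Control, beside 27 genes higher and 48 lower. Signs of members turned in oxLDL+pNaKtide against oxLDL (Erbb2 0.026) and in IS+pNaKtide against Control (Pdgfra -0.0076). With library size alone, the number of members called was 0 in IS against Control, 8 in oxLDL+pNaKtide against oxLDL, 5 in oxLDL+pNaKtide against Control, 2 in the pNaKtide change in oxLDL less that alone, 4 in oxLDL against Control and 4 in the pNaKtide change in oxLDL less that in IS. Over all genes and in the same order, 2125 and 416, 2696 and 7680, 382 and 1586, 1279 and 3991, 4963 and 2276, and 1613 and 4853 were called higher and lower. The setting turned signs in oxLDL against Control (Egfr 0.047, Fgfr1 0.022), in IS against Control (Erbb2 0.064, Met 0.042), in oxLDL+pNaKtide against oxLDL (Axl -0.11), in oxLDL+pNaKtide against Control (Igf1r -0.098), in IS+pNaKtide against Control (Igf1r 0.067, Met 0.074), in the pNaKtide change in oxLDL less that alone (Egfr -0.014, Fgfr1 -0.075) and in the pNaKtide change in oxLDL less that in IS (Pdgfrb -0.13, Erbb2 -0.063). With over 14 counts asked of every library, the number of members called was 3 in oxLDL+pNaKtide against Control, 2 in IS+pNaKtide against Control and 4 in oxLDL+pNaKtide against oxLDL. Of 11567 genes, 820 and 840, 124 and 188, and 4043 and 4261 were called higher and lower in the same order. Signs turned there in IS+pNaKtide against Control (Met 0.0016). With genes of at least 1 count, the number of members called was 0 in IS against Control, beside 326 of 29409 genes higher and 220 lower. At an adjusted p of 0.05, the number of members called was 0 in IS against Control, 0 in oxLDL+pNaKtide against Control, 0 in the pNaKtide change in oxLDL less that alone and 0 in the pNaKtide change in oxLDL less that in IS. Over all genes and in the same order, 62 and 68, 216 and 374, 1457 and 1250, and 2011 and 2042 were called higher and lower. With the compared groups alone, the number of members called was 0 in IS against Control, 0 in oxLDL+pNaKtide against Control, 4 in IS+pNaKtide against Control and 4 in oxLDL against Control. Over all genes and in the same order, this setting called 0 and 0 of 17762, 3 and 9 of 17102, 651 and 644 of 17515, and 3693 and 3779 of 17620 higher and lower. It also turned signs in oxLDL+pNaKtide against oxLDL (Erbb2 0.011). With the GC and length trend out, the number of members called was 1 in oxLDL against Control, 6 in oxLDL+pNaKtide against oxLDL, 3 in oxLDL+pNaKtide against Control, 3 in IS+pNaKtide against Control and 1 in the pNaKtide change in oxLDL less that in IS. Of 20107 genes, 1700 and 2296, 3783 and 3601, 1040 and 882, 190 and 231, and 2125 and 1467 were called higher and lower in the same order. Signs of members turned in oxLDL against Control (Fgfr1 0.023, Met -0.081), in IS against Control (Erbb2 0.11, Igf1r -0.015), in pNaKtide against Control (Ddr2 0.058), in oxLDL+pNaKtide against oxLDL (Egfr 0.37, Igf1r 0.099, Met 0.0081, Axl -0.014), in IS+pNaKtide against Control (Pdgfra -0.057, Ddr2 -0.0062), in the pNaKtide change in oxLDL less that alone (Erbb2 -0.0068, Fgfr1 -0.0086, Igf1r 0.19, Met 0.16), in the pNaKtide change in IS less that alone (Axl -0.0058) and in the pNaKtide change in oxLDL less that in IS (Pdgfrb -0.051, Egfr 0.42, Erbb2 -0.061, Igf1r 0.11). Without Control replicate 1 and IS replicate 4, the number of members called was 5 in oxLDL against Control, 4 in IS against Control, 2 in oxLDL+pNaKtide against Control, 6 in IS+pNaKtide against Control, 3 in the pNaKtide change in oxLDL less that alone and 2 in the pNaKtide change in oxLDL less that in IS. Of 19973 genes, 5056 and 4537, 4783 and 4357, 550 and 755, 3430 and 3096, 3898 and 4156, and 2239 and 2671 were called higher and lower in the same order. The setting turned signs in IS against Control (Met 0.025), in pNaKtide against Control (Ddr2 0.16), in IS+pNaKtide against IS (Fgfr1 0.028), in IS+pNaKtide against Control (Igf1r 0.11, Met 0.030) and in the pNaKtide change in IS less that alone (Igf1r -0.087).

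Replicate numbers recur across groups but no source ties them to a shared culture or day. Deviations from group means correlated at -0.66 to 0.79 over 75 same-numbered pairs, with a median of 0.0996 against -0.034 for pairs of other numbers. Of the same-numbered pairs, 37 were over 0.1, and 10 of 30 libraries correlated best with their own number. These values do not settle whether libraries of a number belong together, and the reported fit did not take the numbers as pairs. With the replicate number as a block, the number of members called was 2 in IS against Control, 3 in oxLDL+pNaKtide against Control, 3 in IS+pNaKtide against Control and 4 in oxLDL against Control. Of 20139 genes, the block called 1808 and 1615, 722 and 931, 787 and 551, and 3946 and 3861 higher and lower in the same order. Signs turned there in IS+pNaKtide against IS (Fgfr1 0.0016) and in IS+pNaKtide against Control (Met 0.0067).

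When each library was left out in turn, the members called ranged from 2 to 5 in oxLDL against Control, from 0 to 4 in IS against Control, from 0 to 1 in oxLDL+pNaKtide against Control, from 0 to 4 in IS+pNaKtide against Control, from 0 to 2 in the pNaKtide change in oxLDL less that alone and from 0 to 3 in the pNaKtide change in oxLDL less that in IS. Values near 0 took both signs, Erbb2 from -0.090 to 0.0071 in IS against Control, Igf1r from -0.0013 to 0.17 in IS against Control, Met from -0.13 to 0.00068 in IS against Control, Ddr2 from -0.11 to 0.16 in pNaKtide against Control, Igf1r from -0.059 to 0.12 in oxLDL+pNaKtide against Control, Pdgfra from -0.076 to 0.13 in IS+pNaKtide against Control, Igf1r from -0.073 to 0.11 in IS+pNaKtide against Control, Met from -0.063 to 0.061 in IS+pNaKtide against Control, Igf1r from -0.14 to 0.070 in the pNaKtide change in oxLDL less that alone, Igf1r from -0.037 to 0.17 in the pNaKtide change in IS less that alone, Ddr2 from -0.26 to 0.014 in the pNaKtide change in IS less that alone, Axl from -0.014 to 0.15 in the pNaKtide change in IS less that alone, Fgfr1 from -0.026 to 0.021 in IS+pNaKtide against IS, Met from -0.0034 to 0.14 in IS+pNaKtide against IS and Erbb2 from -0.064 to 0.043 in oxLDL+pNaKtide against oxLDL. The genes called higher and lower also differed between settings. They numbered 897 and 702 in IS against Control, 410 and 637 in oxLDL+pNaKtide against Control and 28 and 44 in IS+pNaKtide against Control in the reported fit, 1644 and 1516 in IS against Control, 937 and 884 in oxLDL+pNaKtide against Control and 737 and 749 in IS+pNaKtide against Control with DESeq2, 1808 and 1615 in IS against Control, 722 and 931 in oxLDL+pNaKtide against Control and 787 and 551 in IS+pNaKtide against Control with the block, and 0 and 0 in IS against Control, 3 and 9 in oxLDL+pNaKtide against Control and 651 and 644 in IS+pNaKtide against Control with the compared groups alone. Over all genes, calls in oxLDL against Control fell from 3637 higher and 3622 lower to 1700 and 2296 with the trend out. In oxLDL+pNaKtide against Control, library size alone gave 382 higher and 1586 lower in place of 410 and 637, and in IS against Control 2125 and 416 in place of 897 and 702. The lowest count of a member in any library was 111, for Egfr.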
